A study of Mus musculus with 6 samples.

Results

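The surfactant- and lysozyme-high ATII-like cells were 3429 neoplastic cells from mouse lung tumours, 28.4% of the 12092 cells with TdTomato RNA and 21.4% of the 16017 cells in the matrix. They were chosen by their own RNA. A cell had to show at least 500 genes, at most 20% of its unique molecular identifiers (UMIs, each standing for 1 captured RNA molecule) from mitochondrial genes, and at least 1 UMI of TdTomato. Counted per 10000 UMIs of the cell, it also needed at least 500 of Sftpc (surfactant protein C) and at least 100 of Lyz2 (lysozyme 2). It had to hold fewer than 2 of Hopx, an alveolar type I gene, and fewer than 50 of Krt8 and Krt18 together, keratins of cells that leave the type II state. The levels of these 6 genes were therefore fixed by the choice and are given below only as a description.

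Tumours were started in the lung by intratracheal Lenti-Cre and grew for 20 weeks. All 6 mice carried KrasLSL-G12D, 2 copies of the Lkb1XTR allele and the Rosa26LSL-tdTomato reporter, so Cre acted on all 3 alleles in the control tumours as well. The XTR cassette is a gene trap with a GFP reading frame in the first intron of Lkb1 (Stk11 in the gene annotation). Cre turns the trap on, and FLPo-ERT2, a recombinase that needs tamoxifen, removes it. In the last 2 weeks the mice received 4 mg doses of tamoxifen in corn oil or the vehicle. The 3 restored mice carried FLPo-ERT2 and were given tamoxifen. Of the 3 non-restored mice, 1 had FLPo-ERT2 and vehicle, 1 had no FLPo-ERT2 and vehicle, and 1 had no FLPo-ERT2 and tamoxifen. Microdissected tumours were dissociated, cells bearing CD45, CD31, F4/80 or Ter119 and dead cells were sorted away, and the tdTomato-positive cells were loaded on 10x Chromium 3′ chips. The matrix pools the mice without naming the mouse of any cell. Restored and non-restored cells were therefore not compared, the data count as 1 sample, and no difference below was tested. Intervals are exact 95% intervals for counting error alone and do not hold the spread between mice.

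Alveolar type II (ATII) cells make surfactant, the lipid and protein film that keeps alveoli from collapsing. They pack surfactant lipids into lamellar bodies and secrete lysozyme, collectins and other defence proteins into the airspace. They are also the stem cells of the alveolus, give rise to the flat type I (ATI) cells of gas exchange and are a known origin of lung adenocarcinoma.

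The 4 markers given for these cells outside the selection were Hc, Cxcl15, Bex2 and Cox6a2. Hc encodes complement component C5 and lies on chromosome 2 (chr2:34983331-35061438, minus strand). Cxcl15 encodes lungkine, a chemokine of lung epithelium that draws neutrophils (chr5:90794534-90803067, plus strand). Bex2 encodes a small brain-expressed X-linked adaptor protein (chrX:136066564-136068236, minus strand). Cox6a2 encodes the heart and muscle form of a cytochrome c oxidase subunit (chr7:128205435-128206387, minus strand). All positions are on GRCm38 with GENCODE M21 gene ends. The 250 bases before the RefSeq start of the first 3 are shown because these genes had different levels in cells with different Lyz2, and a reader may wish to see the sequence from which they start. Capitals mark letters that matched a searched motif.
Hc, chr2:35061413-35061662, minus strand: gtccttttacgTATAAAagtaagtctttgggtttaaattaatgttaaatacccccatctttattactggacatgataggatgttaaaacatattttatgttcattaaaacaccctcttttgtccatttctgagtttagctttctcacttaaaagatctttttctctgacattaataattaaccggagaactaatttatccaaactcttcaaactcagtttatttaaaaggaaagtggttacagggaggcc
Cxcl15, chr5:90794284-90794533, plus strand: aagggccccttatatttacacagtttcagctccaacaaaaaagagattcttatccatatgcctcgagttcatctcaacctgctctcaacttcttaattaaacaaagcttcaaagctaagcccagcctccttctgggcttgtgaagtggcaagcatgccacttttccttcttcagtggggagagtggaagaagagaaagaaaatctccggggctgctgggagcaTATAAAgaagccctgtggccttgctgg
Bex2, chrX:136068237-136068486, minus strand: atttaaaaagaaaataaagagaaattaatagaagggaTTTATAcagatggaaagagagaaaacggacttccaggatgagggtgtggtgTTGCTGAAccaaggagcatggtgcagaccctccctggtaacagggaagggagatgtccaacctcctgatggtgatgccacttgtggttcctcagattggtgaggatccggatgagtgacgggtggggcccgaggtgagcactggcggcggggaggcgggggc
Both strands were searched for the TATA box (TATAAA), the half-site of C/EBP factors (ATTGC), their dimer site (TTGCNNAA) and the letters that NKX2-1 binds (CTCAAG). The TATA letters lay 27 to 22 bases before the start of Cxcl15 and 239 to 234 bases before that of Hc, and on the opposite strand 213 to 208 bases before that of Bex2. The dimer letters were matched 162 to 155 bases before the start of Bex2. The half-site and the NKX2-1 letters were found in none of the 3 windows. Among 32851 RefSeq windows of the same length, 12.4% held the TATA letters, 23.1% the half-site, 9.56% the dimer site and 13.3% the NKX2-1 letters. The half-site and the dimer site can overlap, and a match of letters does not show binding.

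The selection removed cells step by step. Of the 16017 cells, 13936 had at least 500 genes, 12183 of these were within the mitochondrial limit and 12092 of these had TdTomato. The Sftpc limit left 8524, the Lyz2 limit 3626, the Hopx limit 3443 and the keratin limit 3429. The Lyz2 limit alone kept 3545 cells out that passed every other limit, against 180 for Hopx, 67 for Sftpc and 14 for the keratins. These 3545 cells are called the Lyz2-low neighbours here, and they are part of the 8663 other TdTomato cells. The rest of the other cells were 1385 Sftpc-high cells with Hopx over its limit, 165 Sftpc-high cells with keratins over theirs, and 3568 cells with Sftpc under its limit. The plot of Sftpc against Lyz2 shows no gap in Lyz2 at its limit. The 225 selected cells with Lyz2 between 100 and 110 per 10000 had Hc at 594 and Bex2 at 293 UMIs per 1000000, and the 232 cells between 90 and 100 had 534 and 244. Cxcl15 was at 8510 inside and 8857 outside this limit and Cox6a2 at 157 and 164, so neither was higher inside. At the Hopx limit, 330 selected cells with 1 to 2 per 10000 had Hc at 720, Cox6a2 at 232 and Bex2 at 340. The 90 cells just outside, with 2 to 3 and every other limit met, had 766, 268 and 198. Cxcl15 was at 9554 inside and 10191 outside the Hopx limit, so Hc, Cox6a2 and Cxcl15 were no lower outside.

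**Figure D1:**
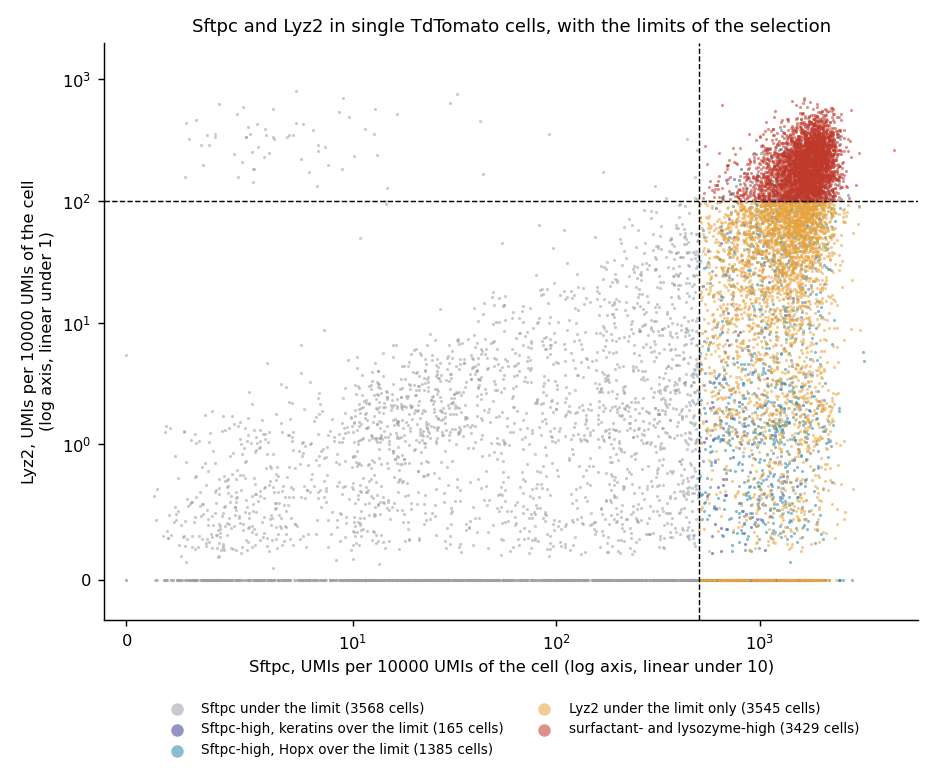
Each point is 1 of the 12092 TdTomato cells, placed by its Sftpc (x) and Lyz2 (y) in UMIs per 10000 UMIs of the cell, on log axes that are linear near 0, with dashed lines at the limits of 500 and 100. The 3429 surfactant- and lysozyme-high cells fill the upper right corner and run without a gap into the 3545 cells that failed the Lyz2 limit only.

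The selected cells held more RNA than the others. They had a median of 24514 UMIs (5th to 95th percentile 8054 to 47761) and 4387 genes per cell, against 17025 UMIs and 4054 genes in the other cells and 18720 UMIs and 4053 genes in the Lyz2-low neighbours. Median mitochondrial shares were 4.16%, 3.44% and 4.5%. Median Sftpc was 1701 per 10000 in the selected cells and 1289 in the neighbours, which pass the same Sftpc limit. By the selection, median Lyz2 was 191 and 28.8. Sftpc alone was 17.1% of all UMIs of the selected cells. Levels are therefore given as CPM (counts per 1000000), the UMIs of a gene summed over a group of cells per 1000000 UMIs of all genes but the 6 used for the selection. A gene is called higher or lower when its CPM differs by more than 1.5-fold and reaches 10 in either group.

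The label was checked against marker genes. Next to the fixed Sftpc and Lyz2, the surfactant genes Sftpa1, Sftpb and Sftpd and the lamellar-body genes Lamp3, Abca3 and Slc34a2 were abundant (values below). ATI genes were lower than in the other cells but present. The 15 ATI markers summed to 2417 CPM against 5375, with Rtkn2 at 1.44 against 22.3 and Ager at 834 against 1971. After thinning to 5000 UMIs, Ager was seen in 85.5% of the selected and 90.2% of the other cells, and in 7.14% of endothelial cells without Epcam. Neuroendocrine markers summed to 0.650 CPM and erythroid markers to 0.0283 CPM. Of the selected cells, 15 (0.437%) carried at least 3 of 5 endothelial, fibroblast or immune markers, against 391 (4.51%) of the other cells. Endothelial markers summed to 19.6, 21.4 and 75.4 CPM in the selected, neighbour and other cells, fibroblast markers to 14.8, 63.3 and 1262, and immune markers to 8.18, 1.03 and 86.8, and none of these 15 genes was at 0 in any of the 3 groups. Some results against the other cells are therefore also given without such cells in either group, which left 3414 selected cells and 8272 other cells.

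Against the other TdTomato cells, 363 of 8526 genes were higher in the surfactant- and lysozyme-high cells (4.26%) and 1145 were lower (13.4%). The ratio of the median gene was -0.19 on the log2 scale, and relative to that gene 620 were higher and 751 lower. With all UMIs in the totals the counts were 230 and 1804. Without the cells with stromal or immune markers in either group they were 367 and 990. Against the Lyz2-low neighbours, which differ by the selection in Lyz2 alone, 96 of 8132 genes were higher (1.18%) and 229 were lower (2.82%), with the median gene at -0.11 on the log2 scale. Relative to that gene the counts were 142 and 162. The neighbours are among the other cells, so the comparisons share cells. Of the 363 genes higher against the other cells, 88 (24.2%) were among the 96 higher against the neighbours, of which they were 91.7%.

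Summed over each class, all 4 markers were higher in the surfactant- and lysozyme-high cells than in the 4 other classes. Since they were proposed as markers from these cells, their levels describe the cells. The Hopx class also had low Lyz2, with a median of 2.14 per 10000, so it differs from the selected cells in both genes. Bex2 stood at 367 CPM in the selected cells, 154 in the Lyz2-low neighbours, 89.8 in the Sftpc-high cells with Hopx, 26.7 in those with keratins and 7.40 in the cells with low Sftpc. The ratio was 4.47 (4.38 to 4.57) to all other cells and 2.38 (2.33 to 2.44) to the neighbours. With a Lyz2 limit of 200, these were 1.57 and 0.82 on the log2 scale, against 2.16 and 1.25. Hc was at 681 CPM, against 369, 269, 86.7 and 25.3 in the same 4 classes, or 3.25 (3.21 to 3.30) times the other cells and 1.84 (1.82 to 1.87) times the neighbours. Cxcl15 reached 11646 CPM, against 5943, 3938, 2065 and 330, with ratios of 3.54 and 1.96. Cox6a2 was at 198 CPM, against 97.4, 97.2, 20.2 and 8.02, with ratios of 3.30 and 2.04. The order of classes was the same for the 4 genes, but Cox6a2 did not separate the neighbours from the Hopx class beyond counting error. Cox6a1, the form of the same oxidase subunit found in most tissues, was at 305 CPM in the selected cells, 297 in the other cells and 296 in the neighbours.

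**Figure D2:**
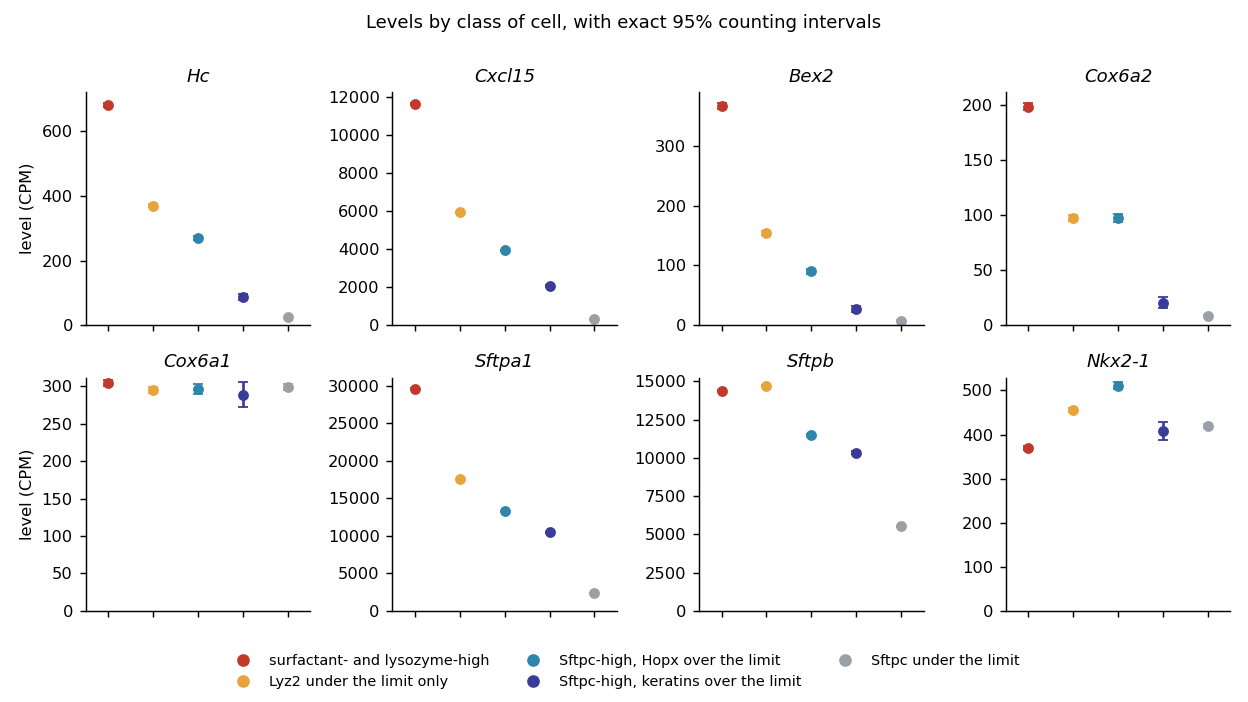
Levels in CPM (y, from 0) of 8 genes in the 5 classes of TdTomato cells, from left to right the surfactant- and lysozyme-high cells, those failing the Lyz2 limit only, Sftpc-high cells with Hopx, Sftpc-high cells with keratins and Sftpc-low cells, with exact 95% counting intervals as bars. Hc, Cxcl15, Bex2, Cox6a2 and Sftpa1 are highest in the first class, whereas Cox6a1 and Sftpb (14376 and 14708 CPM in the first 2 classes) are nearly level between them.

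Most selected cells showed Hc, nearly all Cxcl15, and fewer Bex2 and Cox6a2. After each cell was thinned to 5000 UMIs, which left out 37 selected cells that were shallower, Hc was seen in 82.1% (80.7 to 83.4) of 3392 selected cells and 58.6% of 3380 neighbours. Bex2 was seen in 56.0% (54.3 to 57.6) and 32.3%, and Cox6a2 in 36.5% (34.8 to 38.1) and 19.9%. Free RNA in the droplets also gives UMIs. Endothelial cells without Epcam should lack these genes. There were 116, with a median of 9100 UMIs, and 70 of them had at least 5000. In these 70, after thinning, the shares were 5.71% for Hc, 0% for Bex2, which allows up to 5.13%, and 1.43% for Cox6a2. Cxcl15, at 99.97% and 98.1% of selected and neighbour cells, was seen in 20.0% of these endothelial cells. Without thinning, 96.8% of the selected cells had Hc, 74.5% Bex2 and 61.7% Cox6a2.

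Of the surfactant genes other than Sftpc, Sftpa1 alone passed 1.5-fold against the neighbours, and in cells of like Sftpc (1400 to 1800 per 10000) it did not (1.49). Sftpa1, a collectin that coats inhaled microbes, was at 29580 CPM in the selected cells, 17529 in the neighbours and 10673 in the other cells, with ratios of 1.69 and 2.77. Sftpb, needed to form the surfactant film, was at 14376, 14708 and 10430 CPM. Sftpd, another collectin, was at 5921, 5666 and 4126 CPM. Of the 8 genes for surfactant processing, 6 were higher than in the other cells, where 4.26% of all genes were, and none was lower, with a list median of 0.78 on the log2 scale against -0.19 over all genes. Napsa, a protease that processes surfactant protein precursors, was just over the limit (0.59) and under it in 5 alternatives, among them all UMIs in the totals (0.42) and no stromal or immune cells in either group (0.52), which left 5 of the 8. None of the 8 passed 1.5-fold against the neighbours, where the list median was 0.15. Lamp3, a lamellar-body membrane protein, was at 1040, 874 and 500 CPM in selected, neighbour and other cells, and Abca3, which loads lipid into lamellar bodies, at 570, 523 and 326. Pla2g1b, a secreted phospholipase, was at 141, 94.8 and 59.0 CPM.

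By number of genes, secreted defence was the list with the most members that differed from the neighbours. A larger share differed in other lists, among them cell cycle (6 of 7) and gut and stomach-type genes (3 of 3). Of 13 defence genes tested, 10 were higher, where 1.18% of all genes were, and none was lower. The median was 0.82 on the log2 scale against -0.11 over all genes. Of 14 tested against the other cells, 11 were higher, where 4.26% of all genes were, and 1 was lower, with a median of 1.39. Hc and Cxcl15, markers proposed from these cells, belong to this list and count among the higher genes. Lcn2, which binds bacterial iron carriers, was at 3430 CPM in the selected cells, 1642 in the neighbours and 855 in the other cells. Lrg1, a leucine-rich glycoprotein, was at 1109, 498 and 282 CPM. Chil1, a chitinase-like lectin, was at 2852, 1761 and 979 CPM. C6, a later component of the complement cascade that Hc belongs to, was at 89.8, 34.7 and 19.7 CPM, or 2.59 (2.46 to 2.72) times the neighbours. Lyz1, a close paralog of the selecting gene Lyz2 that may share reads with it, was at 121, 43.3 and 22.3 CPM, and its UMIs lay in very few cells (below). With a Lyz2 limit of 200, Chil1, Cxcl1 and Lyz1 were not among the higher defence genes against the neighbours, and Cxcl1, Lyz1 and Retnla not against the other cells.

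The list of Bex genes and other small marker genes had 4 of 7 genes higher in both comparisons and none lower, with medians of 1.71 and 1.03. Of all genes, 4.26% were higher than in the other cells and 1.18% than in the neighbours. The 4 were Bex2, Bex4, Cox6a2 and Nrn1. The list holds the markers Bex2 and Cox6a2 and was chosen with earlier results of these data known, so its count only describes the cells. With a Lyz2 limit of 200, Bex4 was not called against the neighbours. Bex4, a neighbour of Bex2 on the X chromosome, was at 51.4, 25.2 and 15.7 CPM in selected, neighbour and other cells. Nrn1, a small secreted factor of neurite growth, was at 198, 90.1 and 51.4 CPM. Bex3 was at 247, 252 and 225 CPM and Tceal9, of a related family, at 675, 671 and 574.

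Transcription factors of the ATII lineage differed little from the neighbours. Nkx2-1, the factor that specifies lung epithelium, was at 370 CPM in the selected cells, 456 in the neighbours and 449 in the other cells, a ratio of 0.812 (0.798 to 0.825) to the neighbours. Cebpa, a C/EBP factor of mature ATII cells, was at 448, 466 and 312 CPM. Cebpd was at 351, 286 and 233 CPM and passed 1.5-fold by little against the other cells (1.5), and it did not with all UMIs in the totals (0.42 on the log2 scale). Etv5, an ETS factor that maintains ATII cells, was at 157, 140 and 95 CPM and was the 1 of 8 lineage factors called higher than in the other cells, a call that was lost with all UMIs in the totals (0.56 on the log2 scale). No C/EBP or lineage factor passed 1.5-fold against the neighbours in either direction, and the medians of both lists changed sign with the scaling of the totals.

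Some genes of lipid synthesis passed 1.5-fold against the other cells, and Fabp5 alone did against the Lyz2-low neighbours. Of 17 fatty acid and phospholipid genes, 4 were higher than in the other cells, where 4.26% of all genes were, and none was lower (median 0.41). Relative to the median gene 10 were higher, where 620 of 8526 genes were. Fasn, fatty acid synthase, was at 729 CPM against 395, Scd1, which desaturates fatty acids, at 4123 against 2325, and Elovl1, which elongates them, at 1434 against 839. With a Lyz2 limit of 200, Scd1 was not called higher than in the other cells. Against the neighbours, Fasn was at a ratio of 1.05 and Scd1 of 1.02. Fabp5, a fatty acid binding protein, was at 769 CPM in the selected cells, 411 in the neighbours and 326 in the other cells. Of the 13 sterol synthesis genes tested against the other cells, Insig1, a brake on sterol synthesis, was higher (1.64) and the rest were under 1.5-fold. Insig1 was also under it with all UMIs in the totals (0.55 on the log2 scale) and with a Lyz2 limit of 200 (0.57).

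Of 7 MHC class II genes, which ATII cells express, 5 were called higher than in the other cells, where 4.26% of all genes were. The list median was 0.64 on the log2 scale against -0.19 over all genes. With all UMIs in the totals, 1 of the 7 was called higher. H2-Aa was at 1388 CPM against 737 and Cd74, the invariant chain, at 7581 against 4876. None of the 7 passed 1.5-fold against the neighbours (median 0.21), and none of 9 MHC class I genes did in either comparison. Without the cells with stromal or immune markers in either group, the log2 ratio to the other cells was 0.87 for H2-Aa and 0.59 for Cd74, just over 1.5-fold, and with a Lyz2 limit of 200 Cd74 did not pass.

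**Figure D3:**
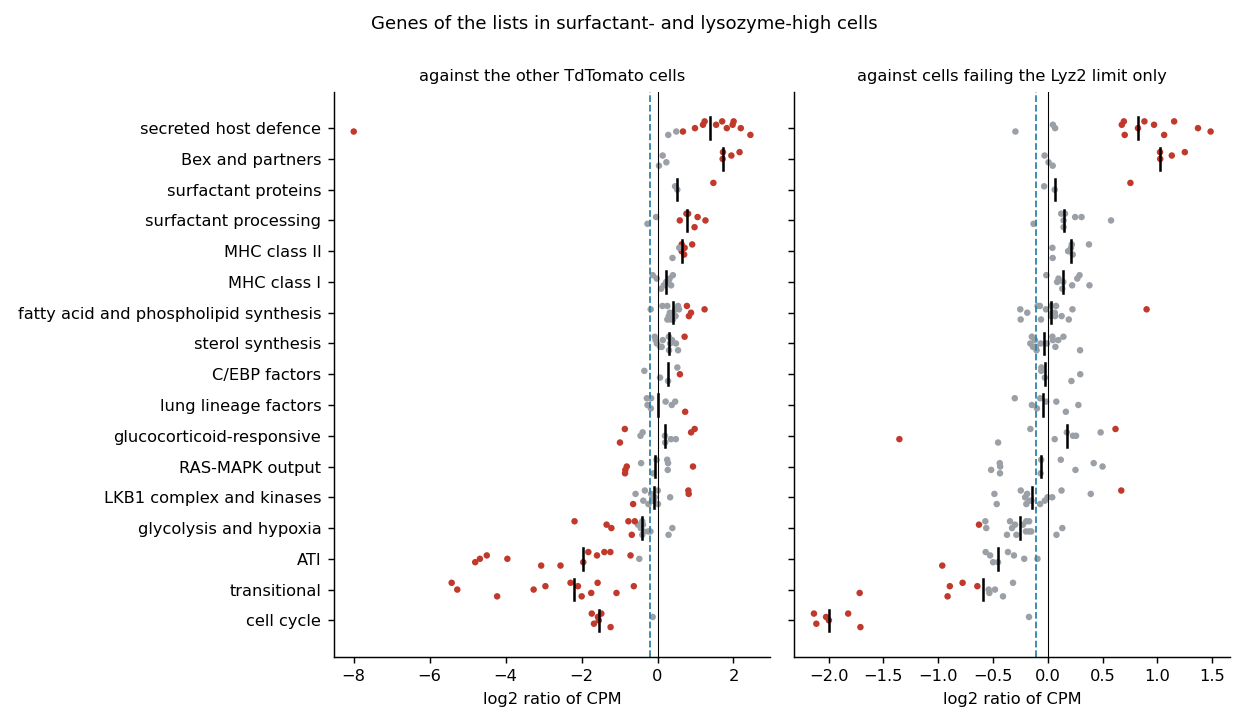
Log2 ratios of CPM (x) of the genes of 17 lists in the surfactant- and lysozyme-high cells over the other TdTomato cells (left) and over the cells that failed the Lyz2 limit only (right). Points are genes, red where over 1.5-fold, black ticks are list medians and the dashed line is the median of all tested genes (-0.19 and -0.11). Secreted defence genes and the Bex list lie to the right in both panels, and cell cycle genes to the left.

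Genes of ATI and transitional cells were lower than in the other cells, part of which the Hopx and keratin limits fix. Of 13 ATI genes tested 12 were lower than in the other cells, as were all 12 transitional genes, where 13.4% of all genes were. Against the neighbours, which meet the same Hopx and keratin limits, 1 of 9 ATI genes and 5 of 10 transitional genes were lower, where 2.82% of all genes were, with medians of -0.45 and -0.59. Ager, the ATI receptor for glycation products, was at 834 CPM in the selected cells and 1235 in the neighbours, a ratio of 0.675 that did not pass 1.5-fold. The 1 ATI gene called lower there was Akap5, an anchoring protein of kinase A, at 6.36 against 12.4 CPM. With all UMIs in the totals, 4 of the 9 ATI and 7 of the 10 transitional genes were lower than in the neighbours. Relative to the median gene, 1 and 4 were. S100a6, a calcium-binding protein, was at 155 and 509 CPM, Clu, clusterin, at 295 and 555, and Krt7 at 183 and 313. Scgb1a1, the club cell secretoglobin, was at 81.2 CPM against 1077 in the other cells. Its log2 ratio of -3.73 was -1.91 as a mean of per-cell levels and -1.65 without the 2% of cells with the most UMIs. Cbr2, a carbonyl reductase of club and ATII cells, was at 573 against 277. Of the gut and stomach-type genes that mark loss of lung identity, the 3 tested against the neighbours were lower (Gkn2, 20.9 against 66.6 CPM, Psca, 3.25 against 11.4, and Phgr1, 71.4 against 111), and Phgr1 was not relative to the median gene. The log2 ratio of Gkn2 was -1.67, and -1.04 without the 2% of cells with the most UMIs and also with a Lyz2 limit of 200.

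Cell cycle genes were lower, with 6 of 7 called lower in both comparisons, where 13.4% and 2.82% of all genes were. Mki67 was at 7.17 CPM in the selected cells, 25.4 in the neighbours and 20.0 in the other cells. Top2a, which untangles replicated DNA, was at 5.94, 24.2 and 17.6 CPM, and Pcna at 16.3, 18.4 and 17.8. Among cells thinned to 5000 UMIs, 24 of 3392 selected cells (0.708%, 0.454 to 1.05) had at least 3 UMIs of 10 cell cycle genes, against 82 of 3380 neighbours (2.43%, 1.93 to 3.0). Without thinning the shares were 4.40% and 6.52%. The Sftpc-high cells with Hopx also had a low share, 13 of 1308 (0.994%, 0.530 to 1.69) after thinning, an interval that overlaps that of the selected cells, and 3.83% without thinning.

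Of 16 genes of glycolysis and hypoxia, 6 were lower than in the other cells, where 13.4% of all genes were, and none was higher. The 6 were the glycolysis genes Pfkp, Pgk1, Pgam1, Eno1 and Pkm and the hypoxia gene Ndrg1, and the list median was -0.42 (-0.26 against the neighbours, with 1 of 16 lower, where 2.82% of all genes were). Eno1, an enolase, was at 76.3 CPM in the selected cells, 118 in the neighbours and 193 in the other cells, and Pkm, pyruvate kinase, at 183, 270 and 424. Relative to the median gene, 3 of the 16 were lower than in the other cells and none than in the neighbours. Cdkn1c, a cell cycle inhibitor, was at 41.5, 106 and 82.4 CPM in the selected, neighbour and other cells. Of 7 progenitor and progression genes tested against the other cells, Id2, an inhibitor of DNA-binding factors, was higher (271 against 144 CPM). Wnt5a, Wnt7b and Itga2 were lower, and with all UMIs in the totals 6 of the 7 were. The shares of all genes were 4.26% higher and 13.4% lower. Wnt5a was not called lower without the cells with stromal or immune markers in either group, and Wnt7b was not relative to the median gene. Of 5 tested against the neighbours, Sox9, a factor of lung progenitors, was lower (12.2 against 23.1 CPM), as was Wnt5a, where 2.82% of all genes were. None of the 5 was higher. Sox9 was at 16.9 CPM in the other cells, which was under 1.5-fold. Of 10 glucocorticoid-responsive genes tested against the other cells, Klf15 (29.0 against 14.7 CPM) and Zbtb16 (13.5 against 7.31), both transcription factors, were higher. Sgk1, a kinase, and Cdkn1c were lower, though Sgk1 was not without the cells with stromal or immune markers in either group (-0.53 on the log2 scale). These were 2 of 10 in each direction, where 4.26% of all genes were higher and 13.4% lower. Against the neighbours Klf15 (18.9 CPM) was higher by little over 1.5-fold, a call lost with all UMIs in the totals, and Cdkn1c was lower. The heat shock genes Hspa1a (568, 948 and 880 CPM) and Hspa1b (340, 550 and 498) were lower than in the neighbours by more than 1.5-fold, and the other 9 stress and immediate early genes were within 1.5-fold in both comparisons. Of the RAS-MAPK output genes, Etv1 was higher and Dusp6, Etv4 and Phlda1 were lower than in the other cells, and none of the 10 passed against the neighbours. Of all genes, 4.26% were higher and 13.4% lower than in the other cells, and the list median was -0.07 against -0.19 over all genes.

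Reads of the restorable gene and of its trap lay on opposite sides. Stk11, which encodes LKB1, the kinase that switches on AMPK and its relatives, was at 35.8 CPM in the selected cells, 22.5 in the neighbours and 20.4 in the other cells, or 1.59 (1.49 to 1.70) and 1.76 (1.66 to 1.85) times higher. With all UMIs in the totals the ratio to the neighbours was 0.58 on the log2 scale, just under the 1.5-fold limit, and with a Lyz2 limit of 200 it was 0.49. GFP of the trap was at 16.7, 35.4 and 38.1 CPM, ratios of 0.473 and 0.439. Among thinned cells, 13.3% of the selected cells had Stk11 without GFP, 5.45% GFP without Stk11, and 1 cell both, against 8.76% and 12.2% of the neighbours. Most cells had neither at this depth, and no cell was assigned to a mouse or a treatment by them. Prkaa2, a catalytic AMPK subunit, was at 10.2 CPM against 5.80 in the other cells, and Sik1, a salt-inducible kinase, at 52.2 against 81.5, which was not a call relative to the median gene. The other 12 LKB1 pathway genes tested were within 1.5-fold of the other cells, and the list median (-0.09) changed sign with the scaling.

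Outside the lists, the genes furthest from the other cells are named by size. Among genes of at least 20 CPM, Gdpd2 had the largest ratio. This glycerophosphodiester phosphodiesterase gene was at 25.6 CPM, against 6.45 in the neighbours and 3.41 in the other cells (a ratio of 7.51, 6.81 to 8.30). Its log2 ratio to the other cells was 2.91, and 2.31 with a Lyz2 limit of 200. Acoxl, an acyl-CoA oxidase-like gene, was at 101, 26.7 and 15.3 CPM. Cst8, a cystatin, Hdc, which makes histamine, and Cth, which makes cysteine, followed at 86.4, 157 and 49.9 CPM, against 21, 42.6 and 14.0 in the other cells. The next were Gjb1 and Gjb6, both connexins, 5330417C22Rik, Tmprss4, a membrane protease, Myh13, Prcd and Klk14, at 24.7 to 94.1 CPM. Gdpd2, Acoxl, Cst8, Cth, Hdc and Prcd were also among the 8 genes furthest above the neighbours, with G0s2, an inhibitor of fat breakdown (47.9 against 23.0 CPM), and Sord, sorbitol dehydrogenase (23.2 against 11.5).

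The 12 genes furthest below the other cells were Acta2, Cxcl14, Tagln, Serping1, Sparcl1, Msln, Col5a2, Timp1, Igf1, Igfbp4, Mfap5 and Gpx3. Several are genes of muscle or connective tissue, and the fibroblast markers moved with them (14.8 against 1262 CPM). Without the cells with stromal or immune markers in either group, the log2 ratio went from -6.69 to -1.82 for Cxcl14 and from -6.23 to -1.25 for Sparcl1, both still called lower. Mfap5 (-5.92 to -0.55) and Col5a2 were no longer called lower, whereas Msln, mesothelin, was at -6.18 and -6.15. Against the neighbours, the lowest was Rbm24, an RNA-binding protein, at 5.6 CPM against 27.4 (0.205). Emp1 was at 7.82 against 23.6, Cavin3, a caveola protein, at 22.3 against 64.6, Porcn, which modifies WNT proteins, at 8.34 against 23.8, and Homer2 at 14.0 against 39.4. Fstl1, Cap2 and Myct1 completed the 8.

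Across bins of Lyz2, the genes varied gradually and in several ways. The 6974 cells that passed every other limit were split into 10 bins, from 1213 cells under 10 per 10000 to 157 cells at 400 or more. Hc went from 180 CPM in the lowest bin to 834 in the highest, Cxcl15 from 4172 to 15847, Acoxl from 9.47 to 183 and Gdpd2 from 2.43 to 41.5, each higher in every successive bin. Bex2 was at 75 CPM in the lowest bin and between 382 and 423 in the 4 highest. Cox6a2 was at 51.6 in the lowest, highest (220) between 300 and 400, and 193 in the last. Sftpb ranged from 14061 to 14968 CPM over all bins and Cox6a1 from 281 to 325. Nkx2-1 went from 530 CPM in the lowest bin to 358 between 200 and 300, and Rbm24 from 42 to 1.16 in the highest. Meg3, an imprinted RNA, was highest in the middle, at 4311 CPM between 50 and 75, and at 1946 in the last bin. Median Sftpc also went from 1168 to 1867 per 10000 and median UMIs from 17809 to 27349 across these bins, and their part in the gradients was not tested beyond the comparison that follows.

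**Figure D4:**
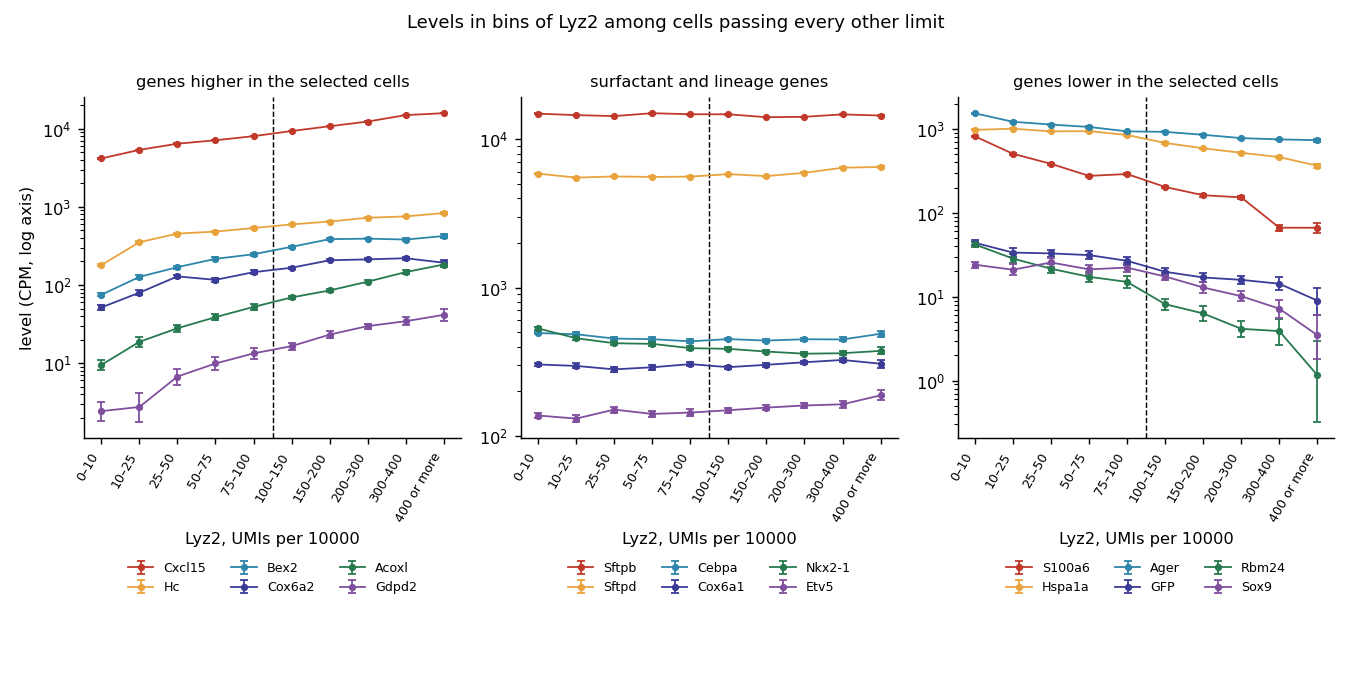
Levels in CPM (y, log axis) in 10 bins of Lyz2 (x, UMIs per 10000) among the cells passing every other limit, with exact 95% counting intervals and a dashed line at the limit of 100. Hc, Cxcl15, Acoxl and Gdpd2 climb through all bins (left), Sftpb and Cox6a1 stay level (middle), and S100a6, Ager, GFP and Rbm24 decline (right).

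The differences from the neighbours were of similar direction in cells of like Sftpc and of like depth. Between 1400 and 1800 Sftpc per 10000 (1285 selected and 947 neighbour cells), the ratio was 1.56 for Hc, 1.63 for Cxcl15, 1.74 for Bex2, 1.73 for Cox6a2, 3.48 for Acoxl, 2.99 for Gdpd2 and 0.293 for Rbm24. Sftpa1 (1.49) and Stk11 (1.28) were then under 1.5-fold, and GFP was at 0.646. Between 15000 and 25000 UMIs per cell (1102 and 1106 cells), the ratios were 1.97 for Hc, 1.89 for Cxcl15, 2.55 for Bex2, 1.72 for Cox6a2, 1.83 for Stk11 and 0.407 for GFP.

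The surfactant- and lysozyme-high cells were not uniform. Among 1098 genes with a mean of at least 0.5 UMIs in selected cells thinned to 5000 UMIs, the 10 with the largest variance beyond sampling were S100a6, Tmem252, Dlk1, Retnla, Chia1, Clu, Thbs1, Hspb1, Fabp5 and Timp3. Of the markers, Cox6a2 ranked 21, Bex2 50, Hc 104 and Cxcl15 286, whereas Sftpb ranked 693 and Nkx2-1 939. Dlk1, an imprinted gene for a NOTCH-family ligand, was at 0 in 80.3% of the thinned cells, and the 10% of cells with the most held 87.8% of its UMIs. Retnla, a resistin-like secreted protein, was at 0 in 45.3% and reached 297 UMIs in 1 thinned cell. Lcn2 and Lrg1 varied together over the 3392 cells (Spearman's rho 0.515), as did Lcn2 with Chil1 (0.449) and with Cxcl15 (0.349). Correlations across cells are descriptions, since the cells share mice, tumours and libraries.

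Dlk1 and Lyz1 came from few cells, so their mean levels do not describe the usual cell. Dlk1 was at 889 CPM in the selected cells, 370 in the neighbours and 199 in the other cells, a ratio of 2.40 to the neighbours. Only 25.1% of the selected cells had a Dlk1 UMI, and 569 cells with at least 10 UMIs held 98.9% of them. They were 16.6% of the selected cells, and 278 neighbours (7.84%) had as many. After thinning to 5000 UMIs, Dlk1 was seen in 19.7% of the selected cells and 12% of the neighbours, and Lyz1 in 3.63% and 1.75%. For Lyz1, 34 cells (the top 1%) held 93.8% of 8585 UMIs. At least 10 UMIs were seen in 35 selected and 23 neighbour cells. With a Lyz2 limit of 200 the Lyz1 ratio to the neighbours turned, to -0.41 on the log2 scale. Chil3, a macrophage chitinase-like gene, was at 15.1 CPM against 1.03 in the neighbours, and 5 selected cells that carried at least 3 of 5 immune markers held 92.4% of its 1067 UMIs. In contrast, the top 1% of cells held 4.44% of Hc, 4.27% of Cxcl15, 6.33% of Bex2 and 9.81% of Cox6a2 UMIs.

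**Figure D5:**
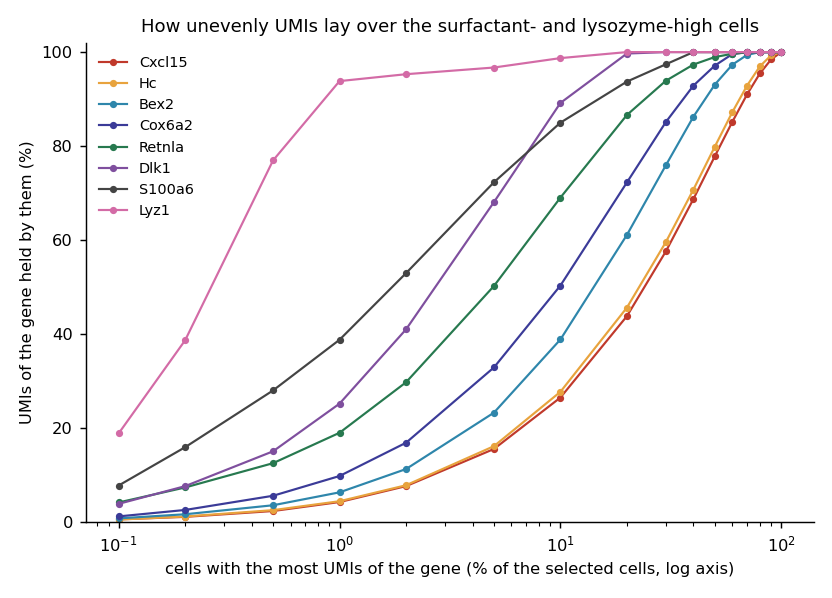
Share of a gene's UMIs (y, %) held by the surfactant- and lysozyme-high cells with the most of it (x, % of the 3429 cells, log axis). The top 10% of cells held 26.5% of Cxcl15 and 27.7% of Hc UMIs, but 89.2% of Dlk1 and 98.7% of Lyz1 UMIs.

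Levels also moved with depth inside the selected cells. In 4 groups of 856 to 858 cells, from the fewest to the most UMIs, Hc was at 1058, 762, 672 and 539 CPM, Dlk1 at 306, 640, 949 and 1137, and Cxcl15 at 9069, 10888, 12069 and 12472. Bex2 was at 427, 426, 389 and 306 CPM and Cox6a2 at 137, 179, 232 and 202. The median mitochondrial share was 7.90% in the shallowest group and 3.40% in the deepest. The part of RNA quality and depth in these levels was not tested.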

How the data were processed

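The authors deposited raw UMI counts in 1 matrix of 16017 cells and 31055 features. Per the file headers, the authors counted with Cell Ranger 3.0.2. The labels give mm10 as the genome, GFP and TdTomato were added features, and the annotation release is not given in the sources used here. Of the feature IDs, 31011 matched GENCODE M21. No file read here ties a cell to a mouse, so cells were summed per class and nothing was tested. Cell barcodes shared between libraries were not analysed here. The members and lists were chosen with earlier results of these data known.

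Levels were UMIs of a gene per 1000000 UMIs (CPM) of the same cells without the 6 selecting genes. Calls needed over 1.5-fold and 10 CPM in either group, without selecting or mitochondrial genes. Intervals were exact: Poisson for levels, conditional binomial for ratios and Clopper-Pearson for shares. PCR duplicates are removed by UMIs, and intervals cover counting error only. Shares were taken after thinning each cell to 5000 UMIs (seed 42). No doublet caller was run, and an alternative left out the 2% of cells with the most UMIs. Cells were counted as carrying stromal or immune RNA with UMIs of at least 3 of 5 endothelial, fibroblast or immune markers.

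Genes named outside the lists were the 12 with the largest ratio in each direction against the other cells and the 8 against the neighbours, among those with at least 20 CPM in the higher group, and the 10 with the largest excess variance. Chil3 and the genes shown across bins of Lyz2, and bands or groups of depth were partly chosen after their values were seen, as were the bands of like Sftpc and depth. Some listed genes are not reported here. Alternatives changed the limits of the selection, left out cells with stromal or immune markers from both groups, and changed the totals, the weighting of cells, the CPM minimum and the fold. Promoter letters came from RefSeq on GRCm38.p6 (3 of 4 markers matched; Cox6a2 was not shown). Python 3.11.15, numpy 2.4.6, scipy 1.17.1 and pandas 2.3.3 were used, and the calls were checked on simulated counts.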

Additional observations from a re-analysis of the deposited data

How the results depend on the processing

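The number of surfactant- and lysozyme-high cells (3429) was 3129 with a mitochondrial limit of 10%, 3279 with an Sftpc limit of 1000, 4653 with a Lyz2 limit of 50 and 1600 with 200, and within its interval under the other alternatives. Genes higher and lower than in the other cells (363 and 1145) numbered 230 and 1804 with all UMIs in the totals, 620 and 751 relative to the median gene, 601 and 2910 with a minimum of 1 CPM, 189 and 390 with 50 CPM, and 123 and 546 at 2-fold. Against the neighbours (96 and 229) they numbered 241 and 874 with 1 CPM, 43 and 47 with 50 CPM, and 22 and 73 at 2-fold. Of 161 called genes named or listed against the other cells, 154 kept their direction without stromal and immune cells in either group, and all did under the other alternatives that gave them a value. The 7 that turned were Cd68 (0.43 on the log2 scale), Chil3 (0.13), Cldn5 (0.50), Col3a1 (0.065), Ear2 (0.16), Fcer1g (0.78) and Pecam1 (0.21), all markers of the cells left out. Of 70 against the neighbours, Lyz1 turned to -0.41 with a Lyz2 limit of 200, where 60 of 70 stayed over 1.5-fold, and the others kept their direction under all alternatives run. Over those planned, the log2 ratio to the neighbours ranged from 0.69 to 1.12 for Hc, 0.85 to 1.08 for Cxcl15, 0.82 to 1.57 for Bex2 and 0.72 to 1.2 for Cox6a2, lowest with a Lyz2 limit of 200 for each and highest with a limit of 50 for Hc, Bex2 and Cox6a2. With a Lyz2 limit of 200, 10 calls against the neighbours were lost (Bex4, Chil1, Cxcl1, Eno1, Gjb6, Klf15, Krt19, Lyz1, Stk11 and Tppp3) and 14 against the other cells (Cd74, Cebpd, Cxcl1, Dynlrb2, H2-DMa, H2-Eb1, Insig1, Lyz1, Meg3, Napsa, Pgam1, Retnla, Scd1 and Wnt7b). The ratios of Bex2, Dlk1, Gdpd2 and Msln to the other cells also moved by over 1.5 times with that limit, and those of Mki67 and Top2a, and of Gdpd2 to the neighbours, with a limit of 50. The cause of these shifts was not tested.

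No paired analysis was possible because the cells were not mapped to mice, and replicates could not be left out for the same reason. The spread between mice is not known here, and genes seen in few cells, such as Stk11 and GFP, are limited by depth.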
